A study of Mus musculus with 6 samples.

Results

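The miRNAs encoded inside the mouse Hox clusters were followed across 6 small RNA libraries of fetal liver. The 7 members are mmu-miR-10a-5p, mmu-miR-10a-3p, mmu-miR-10b-5p, mmu-miR-10b-3p, mmu-miR-196a-5p, mmu-miR-196b-5p and mmu-miR-615-3p, chosen by name from the 1626 mature miRNAs of the deposited table, which listed every one of them. Fetal liver is the main site of red cell formation before birth and also holds hepatoblasts, macrophages, megakaryocytes, endothelial and stromal cells. The libraries came from C57BL/6J embryos, 3 of them wild type (WT, libraries 1 to 3) and 3 homozygous for deletion of the miR-144/451 locus (miR-144/451-/-, here KO, libraries 4 to 6). Each library was made from total RNA of 5000000 fetal liver cells. Neither the embryonic day nor the parentage of the replicates is in the labels, so each p-value measures the spread between libraries that may differ only technically. In bulk RNA of this kind, fewer cells of a type and less of a miRNA per cell cannot be told apart.

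Hox genes encode transcription factors that set position along the body axis, and they stand in 4 clusters whose order on the chromosome matches their order of use from head to tail. Small RNAs are embedded in the same clusters: miR-10 hairpins lie beside the genes of paralogue group 4 and miR-196 hairpins beside those of group 9, and miR-196 is known to direct cleavage of Hoxb8 mRNA. A miRNA acts through its seed, bases 2 to 8 from its 5′ end, which pairs with the target mRNA. In blood, miR-10a is known to fall during megakaryocyte differentiation and miR-196b is known from stem and progenitor cells.

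The mature sequences are shown because the paralogues, which the results separate, are so alike. All 7 members matched a RefSeq entry (GRCm38.p6). Seeds are in capitals and the rest in lower case, each 5′ to 3′.
miR-10a-5p: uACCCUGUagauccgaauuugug
miR-10b-5p: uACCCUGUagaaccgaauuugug
miR-196a-5p: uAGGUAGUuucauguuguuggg
miR-196b-5p: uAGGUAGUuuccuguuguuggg
miR-10a-3p: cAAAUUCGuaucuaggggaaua
miR-10b-3p: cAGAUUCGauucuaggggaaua
miR-615-3p: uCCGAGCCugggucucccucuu

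Counted from the 5′ end, miR-10a-5p and miR-10b-5p differ at 1 of 23 bases (U12A), and miR-196a-5p and miR-196b-5p at 1 of 22 (A12C). Both changes lie outside the seed, so each pair shares its seed, and among the 1376 listed miRNAs with a RefSeq sequence, only 2 carried the miR-10 seed and only 2 the miR-196 seed. The 3p arms of miR-10a and miR-10b differ at 3 bases (A3G, U9A and A10U), the first of them in the seed. How the authors counted reads that match both members of a pair was not given in the sources used here, so some reads of the more abundant paralogue could have been counted for the rarer one.

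The hairpins lie in all 4 Hox clusters (GRCm38, GENCODE M21). Mir10a (chr11:96317165-96317274, plus strand) is in the Hoxb cluster between annotated genes, 992 bases from Hoxb4. Mir10b (chr2:74726070-74726137, plus strand) is in introns of the annotated Hoxd3 and Hoxd4 genes. Mir196b (chr6:52230081-52230165, minus strand) overlaps an exon of an annotated Hoxa9 transcript and is 1031 bases from Hoxa10. Mir615 (chr15:103014910-103015001, plus strand) is in an intron of Hoxc5. miR-196a-5p is made from 2 hairpins with the same mature sequence. These are Mir196a-1 in Hoxb (chr11:96265164-96265265, plus strand), between annotated genes and 6191 bases from Hoxb9, and Mir196a-2 in Hoxc (chr15:102973350-102973434, plus strand), in an intron of Hoxc5 as annotated and between Hoxc10 and Hoxc9. Mir10a and Mir196a-1 share chromosome 11 with the deleted locus, at 18.2 Mb from Mir144.

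Libraries held 16243894 to 27089133 miRNA counts. The products of the deleted locus summed to 197200 to 273100 counts per 1000000 (CPM) in WT and 189.5 to 213.2 CPM in KO, so the level of the locus matched all 6 genotype labels. CPM values are scaled by the trimmed mean of M-values (TMM). Of the markers checked, the erythroid miR-486a-5p stood at 43830 to 82220 CPM and the hepatocyte miR-122-5p at 29320 to 117800 CPM. WT library 1 stood apart in a list of 4 muscle miRNAs (miR-1a-3p, miR-133a-3p, miR-133b-3p and miR-206-3p), and KO library 4 was next. Their summed level was 422.8 CPM in WT library 1 and 87.84 CPM in KO library 4, against 14.0 to 21.1 CPM in the other 4 libraries.

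The Hox-cluster miRNAs were minor species of fetal liver, and they fell into a steady set and a varying set. miR-10a, from Hoxb, and miR-196b, from Hoxa, were the most abundant, and their 5p arms ranged 1.92-fold and 1.74-fold over the 6 libraries. miR-10b, from Hoxd, miR-196a, from Hoxb and Hoxc, and miR-615, from Hoxc, ranged several-fold between libraries of the same genotype and peaked in WT library 1. That library was the highest for 6 of the 7 members, all but miR-10a-5p, so the peak was not particular to the varying set. It was the highest for 18.6% of the 873 tested miRNAs outside the deleted locus. The split into a steady and a varying set was made after the values were seen and is a description. None of the 6 members that could be tested passed the edgeR test of KO against WT.

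**Figure D1:**
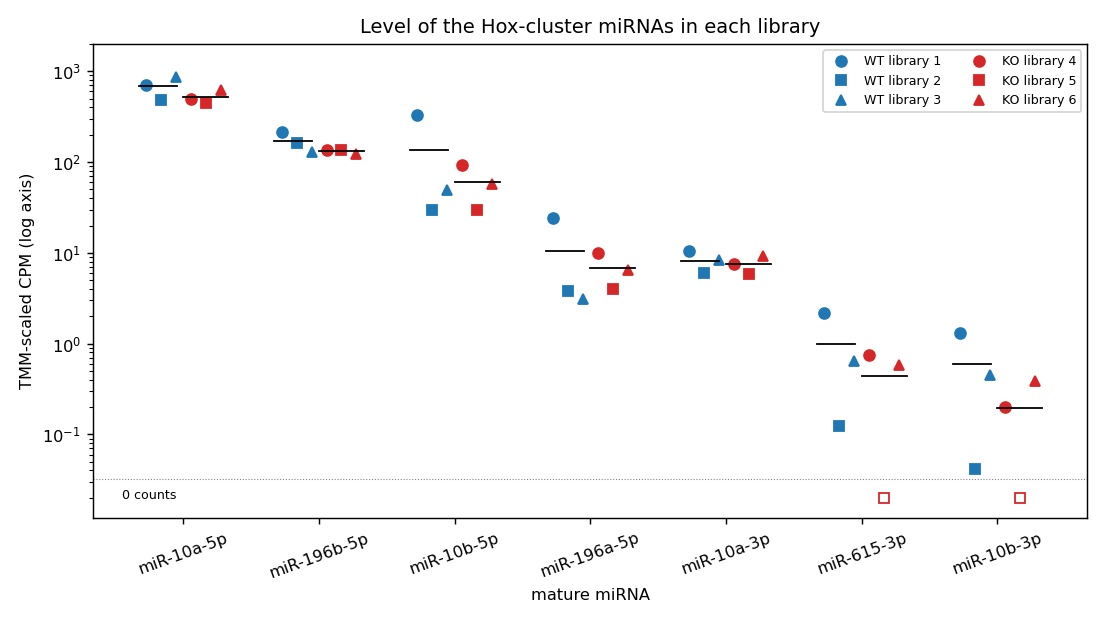
TMM-scaled CPM (log axis) of the 7 Hox-cluster miRNAs in each library, with WT in blue, KO in red and group means as black lines; open squares at the bottom are counts of 0. miR-10a-5p and miR-196b-5p form tight columns, while miR-10b-5p spans 29.6 to 332.2 CPM with WT library 1 highest.

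mmu-miR-10a-5p was the leading member, with WT levels (libraries 1 to 3, in order, here and throughout) of 706.9, 485.2 and 857.0 CPM and KO levels (libraries 4 to 6, in order) of 489.5, 445.5 and 621.9 CPM. The groups overlap, and the highest library held 1.92 times the lowest. The WT mean was 683.0 ± 187.0 CPM and the KO mean 519.0 ± 91.81 CPM (SD, n = 3 each). The log2 fold, KO over WT, was -0.40 (standard error, SE, 0.25; 95% interval -0.99 to 0.20; edgeR quasi-likelihood Benjamini-Hochberg adjusted p = 0.598).

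mmu-miR-10a-3p, the opposite arm of the same hairpin, was far rarer. Its WT levels were 10.4, 5.92 and 8.26 CPM and its KO levels 7.51, 5.91 and 9.24 CPM. It was steady too, with 1.76 times between the highest and the lowest library, and its log2 fold was -0.11 (SE 0.28; edgeR adjusted p = 0.964). The ratio of 5p to 3p counts, each plus 1, was 67.7, 81.4 and 103 in WT and 64.7, 74.7 and 67.1 in KO. The hairpin therefore yielded mostly its 5p arm in all 6 libraries. The log2 ratio differed by -0.27 (KO minus WT), with an exact two-sided permutation p of 0.2 (0.8 after Benjamini-Hochberg adjustment over 4 ratios), where 3 against 3 libraries cannot go below 0.1.

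mmu-miR-196b-5p, the Hoxa product, was second in each genotype's mean level. WT libraries held 212.8, 163.6 and 129.5 CPM, KO libraries 136.8, 135.9 and 122.4 CPM. WT library 1 was the highest, and the KO libraries lay close together, near the lowest WT library. The WT mean was 168.6 ± 41.89 CPM and the KO mean 131.7 ± 8.08 CPM (SD, n = 3 each), with a log2 fold of -0.36 (SE 0.22; 95% interval -0.88 to 0.17; edgeR adjusted p = 0.598). Scaled by library total alone, which moves the median over all other miRNAs to 0.34, it had a log2 fold of 0.01. Its opposite arm, miR-196b-3p, had 3 to 13 counts per library and was not tested.

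mmu-miR-10b-5p, the Hoxd paralogue of miR-10a-5p, behaved otherwise. Levels were 332.2, 29.8 and 49.4 CPM for WT and 92.9, 29.6 and 56.7 CPM for KO. WT library 1 alone was high, at 6.43 times the mean of the other 5 libraries, and KO library 4 was the highest KO library, at 2.15 times the mean of the other 2. The WT mean was 137.1 ± 169.2 CPM and the KO mean 59.7 ± 31.8 CPM (SD, n = 3 each). The log2 fold was -1.20 (SE 0.92; 95% interval -3.39 to 0.99; edgeR adjusted p = 0.647), and without WT library 1 it turned to 0.59 (SE 0.49; edgeR adjusted p = 0.722).

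The range between libraries was wider than the counting intervals. Per 1000000 counts of the library, unscaled, miR-10b-5p stood at 293.1 in WT library 1 (Wilson 95% interval 285.9 to 300.6) and 26.6 in WT library 2 (24.7 to 28.6). Intervals of this kind reflect the counting of reads alone and hold no spread between libraries. Sequenced reads that carry no molecular identifier may also be copies of one molecule, which the intervals do not allow for. The opposite arm, miR-10b-3p, is read from a separate sequence and had 24, 1 and 9 counts in WT and 4, 0 and 10 in KO. Its highest library was also WT library 1. It did not pass the filter on low counts, and its 0 in KO library 5 allows a level of up to 0.182 per 1000000 counts of that library (3 counts). The log2 ratio of 5p to 3p for miR-10b, from these few counts, differed by 0.54 (exact two-sided permutation p = 0.5). It was 0.10 with 5 counts added in place of 1 and 0.01 without WT library 3, so its size depends on those choices.

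mmu-miR-196a-5p showed a similar profile at a lower level. Levels were 24.5, 3.81 and 3.10 CPM for WT and 9.88, 4.03 and 6.48 CPM for KO. WT library 1 was again the highest of the 6 and KO library 4 the highest of its genotype. The WT mean was 10.5 ± 12.1 CPM and the KO mean 6.80 ± 2.94 CPM (SD, n = 3 each), and the log2 fold was -0.62 (SE 0.82; edgeR adjusted p = 0.836), turning to 0.97 (SE 0.41; edgeR adjusted p = 0.611) without WT library 1. The 3p arms that would tell its 2 hairpins apart were nearly absent. miR-196a-1-3p, of the Hoxb hairpin, had 4 counts in WT library 3 and 4 in KO library 5, and miR-196a-2-3p, of the Hoxc hairpin, 1 count in KO library 4, with 0 elsewhere. The cluster that supplied miR-196a-5p can therefore not be told apart here.

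mmu-miR-615-3p was close to the limit of detection, with 40, 3 and 13 counts in WT and 15, 0 and 15 in KO. WT library 1 held the most, 1.93 per 1000000 counts of the library (Wilson 95% interval 1.42 to 2.63), against 0.111 (0.0377 to 0.326) in WT library 2. KO library 5 had none, with a Wilson 95% upper limit of 0.233 per 1000000 counts, where 3 counts would be 0.182. The log2 fold was -1.08 (SE 1.15; 95% interval -3.81 to 1.66; edgeR adjusted p = 0.782) and 0.27 (SE 1.14; edgeR adjusted p = 0.922) without WT library 1.

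Of the 7 members, 6 passed the filter on low counts, and 0 were called higher and 0 lower in KO at an edgeR adjusted p under 0.05. Of all 876 tested miRNAs, 0.457% were called higher and 0.342% lower, together 0.799%, and the 3 called lower were the products of the deleted locus. At an unadjusted p under 0.05 the count was 0 of 6 members, against 11.3% of all tested. DESeq2, which called 0.963% of the 1558 miRNAs it gave an adjusted p, and limma-voom also called 0 members. No member had 3 KO values wholly above or below the 3 WT values, which occurred for 21.8% of tested miRNAs. The median log2 fold of the 6 was -0.51, from -1.20 to -0.11, and all 6 were below 0, while among the 873 tested miRNAs outside the deleted locus the median was -0.01 with 457 below 0. Of those signs, 4 rested on WT library 1: without it, miR-10a-3p, miR-10b-5p, miR-196a-5p and miR-615-3p were above 0. Without a scaling factor, which raises miRNAs alike and puts the median at 0.34, miR-10a-3p and miR-196b-5p were above 0 but below that median.

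**Figure D2:**
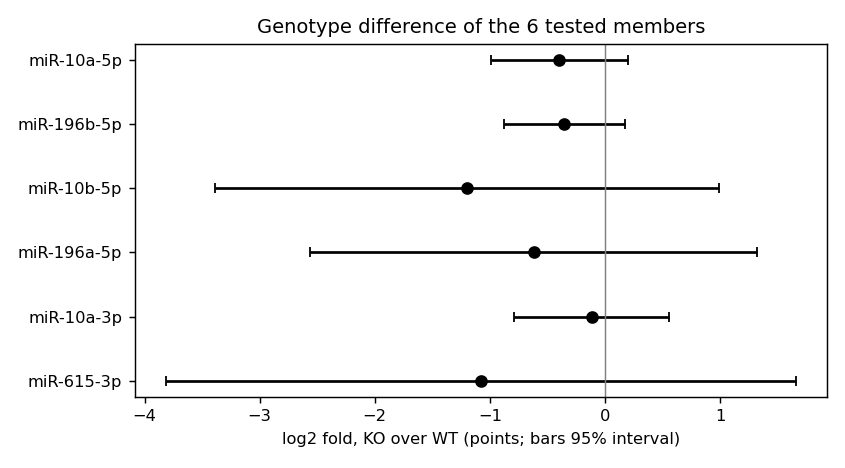
Log2 fold of KO over WT (points) with 95% interval (bars) from the edgeR fit of all 6 libraries, for the 6 members that passed the filter. Every interval spans 0; those of miR-10b-5p, miR-196a-5p and miR-615-3p are wider than those of miR-10a-5p, miR-10a-3p and miR-196b-5p.

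The summed arms were also compared between genotypes by hairpin locus. On the log2(CPM + 1) scale, KO minus WT was -0.37 for miR-10a of Hoxb, -0.55 for miR-10b of Hoxd, -0.33 for miR-196b of Hoxa, -0.10 for miR-196a of Hoxb and Hoxc and -0.37 for miR-615 of Hoxc. Two-sided exact permutation tests gave p of 0.3, 0.8, 0.3, 1.0 and 0.5 (0.75 to 1.0 after Benjamini-Hochberg adjustment over the 5). What separated the loci was their spread. The SD of the log2 level within WT was 0.42 for miR-10a and 0.36 for miR-196b but 1.81 for miR-10b and 1.46 for miR-196a, and within KO it was 0.25 and 0.09 but 0.81 and 0.56.

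Set against all 876 tested miRNAs, miR-10b-5p and miR-196a-5p were among the most variable within a genotype. The pooled within-genotype SD of log2(CPM + 1) was 1.41 for miR-10b-5p, with 7 miRNAs larger, and 1.10 for miR-196a-5p, with 11 larger. The median of all tested was 0.27. miR-196b-5p stood at 0.26, miR-10a-3p at 0.32 and miR-10a-5p at 0.34, near that median. miR-615-3p stood at 0.62, at a level where few counts add to the spread.

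**Figure D3:**
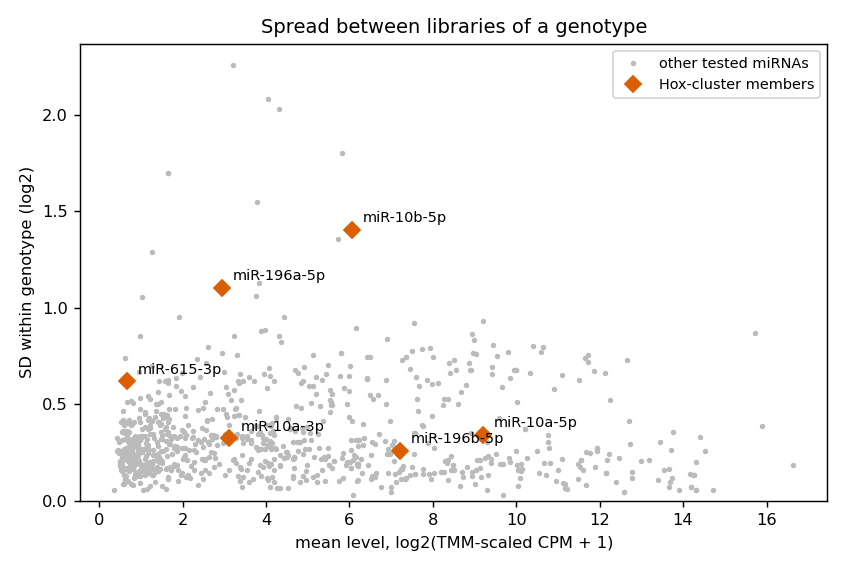
SD between libraries of the same genotype (log2, pooled over WT and KO) against mean level on the log2(TMM-scaled CPM + 1) axis; grey points are the other tested miRNAs and diamonds the members. miR-10b-5p at 1.41 and miR-196a-5p at 1.10 stand above almost all others, and miR-196b-5p at 0.26 lies in the main cloud.

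The paralogues with a shared seed therefore did not keep a fixed proportion. miR-10a-5p supplied 68.0%, 94.2% and 94.6% of the counts with the miR-10 seed in WT libraries 1 to 3 and 84.0%, 93.8% and 91.6% in KO libraries 4 to 6. The Wilson 95% interval ran from 67.4% to 68.7% in WT library 1 and from 83.4% to 84.7% in KO library 4. miR-10b-5p thus made up 32.0% of the pair in WT library 1 and 5.45% to 16.0% in the others. The log2 ratio of miR-10a-5p to miR-10b-5p averaged 3.08 ± 1.72 in WT and 3.25 ± 0.78 in KO (SD, n = 3 each), a difference of 0.18 with an exact two-sided permutation p of 1.0. Without WT library 1 that difference was -0.82 (exact permutation p = 0.2, the smallest for 2 against 3) and without KO library 5 it was -0.15.

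In the miR-196 pair, miR-196a-5p supplied 10.3%, 2.28% and 2.34% of the counts in WT and 6.74%, 2.88% and 5.03% in KO, and miR-196b-5p the rest. The rarer paralogue again took its largest parts in WT library 1 and KO library 4. The log2 ratio of miR-196a-5p to miR-196b-5p averaged -4.63 ± 1.31 in WT and -4.36 ± 0.65 in KO (SD, n = 3 each; difference 0.27, exact two-sided permutation p = 0.8). The difference was -0.12, -0.09 and -0.02 without WT library 2, WT library 3 and KO library 4, and 1.03 without WT library 1 (exact permutation p = 0.2). Summed over the pair, molecules with the miR-10 seed stood at 515.1 to 1039 CPM in WT and 475.1 to 678.6 CPM in KO, and those with the miR-196 seed at 132.6 to 237.3 and 128.8 to 146.6 CPM, so both sums overlapped between genotypes.

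**Figure D4:**
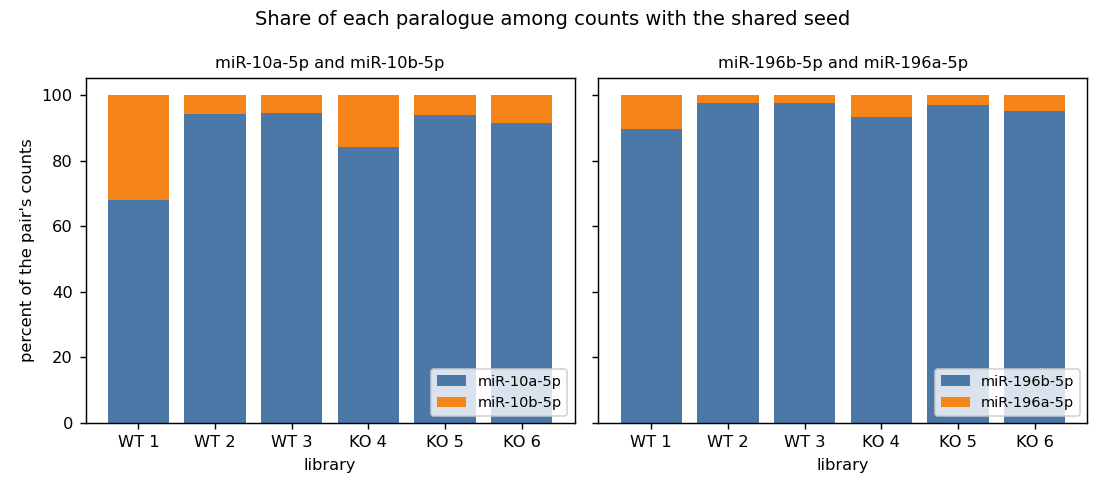
Percent of counts with the shared seed taken by each paralogue in each library, miR-10a-5p and miR-10b-5p on the left and miR-196b-5p and miR-196a-5p on the right. The rarer paralogue takes 32.0% and 10.3% in WT library 1 and 16.0% and 6.74% in KO library 4, its 2 largest shares in each pair.

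Across clusters, miR-10b-5p and miR-196a-5p, both of wide range, had profiles closer to each other than to those of their own steadier seed partners. Likeness was measured as the root-mean-square distance between the 6 library values of log2(CPM + 1), each centred on its own mean, so that 0 is an identical profile. The profiles were not scaled, so one with a wide range lies far from every steady one, whatever its shape. The order of the distances thus partly restates the spread given above and is not a separate likeness across clusters. miR-10b-5p lay at 0.42 from miR-196a-5p, of other clusters, but at 1.08 from miR-10a-5p, its seed partner. Among the 463 other miRNAs with a mean of at least 10 CPM, miR-10a-5p ranked 59th nearest to miR-10b-5p, so most lay farther off. Seen from miR-10a-5p, miR-10b-5p ranked 455th. miR-196a-5p lay at 0.74 from miR-196b-5p, its own partner. The 2 arms of miR-10a lay at 0.23 from each other, and miR-10a-5p at 0.41 from miR-196b-5p. The count ratio of miR-10b-5p to miR-196a-5p was 13.6, 7.83 and 15.9 in WT and 9.40, 7.34 and 8.75 in KO, and spanned 2.17-fold, while the ratio of miR-10b-5p to miR-196b-5p ranged 8.56-fold. These distances rest on 6 libraries and, for the varying pair, mainly on WT library 1 and KO library 4.

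Those 2 libraries were also the ones with the most muscle miRNA. All 4 miRNAs of the muscle list were detected and all 4 were highest in WT library 1. However, miR-133a-3p and miR-133b-3p had nearly the same level in every library, at 22.4 and 22.46 CPM in WT library 1. The same reads may stand under both names and so enter the list sum more than once, which was not tested. The list sum ranged from 15.12 to 422.8 CPM in WT and from 13.99 to 87.84 CPM in KO. WT library 1 held 13.9 times the mean of the other 5 libraries and KO library 4 held 6.26 times the mean of the other 2 KO libraries, where miR-10b-5p held 6.43 and 2.15 times and miR-196a-5p 4.48 and 1.88 times. The neural list was high in WT library 1 only, at 515.0 CPM against 123.7 to 163.2 CPM in the others, through 2 of its 4 members, miR-9-5p at 424.0 CPM and miR-124-3p at 7.81 CPM. The other 2 were not raised there, with miR-138-5p at 15.1 CPM and miR-219a-5p at 68.0 CPM, inside their ranges in the other libraries. The part of muscle, neural or other non-liver tissue in the levels of miR-10b-5p, miR-196a-5p and miR-615-3p was not tested. Leaving out both WT library 1 and KO library 4, an alternative chosen after seeing the data, gave log2 folds of 0.13 (SE 0.43) for miR-10b-5p, 0.61 (SE 0.38) for miR-196a-5p, 0.10 (SE 0.37) for miR-10a-3p, -0.26 (SE 1.33) for miR-615-3p, -0.33 (SE 0.36) for miR-10a-5p and -0.18 (SE 0.27) for miR-196b-5p, with edgeR adjusted p of 0.963 to 0.996.

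**Figure D5:**
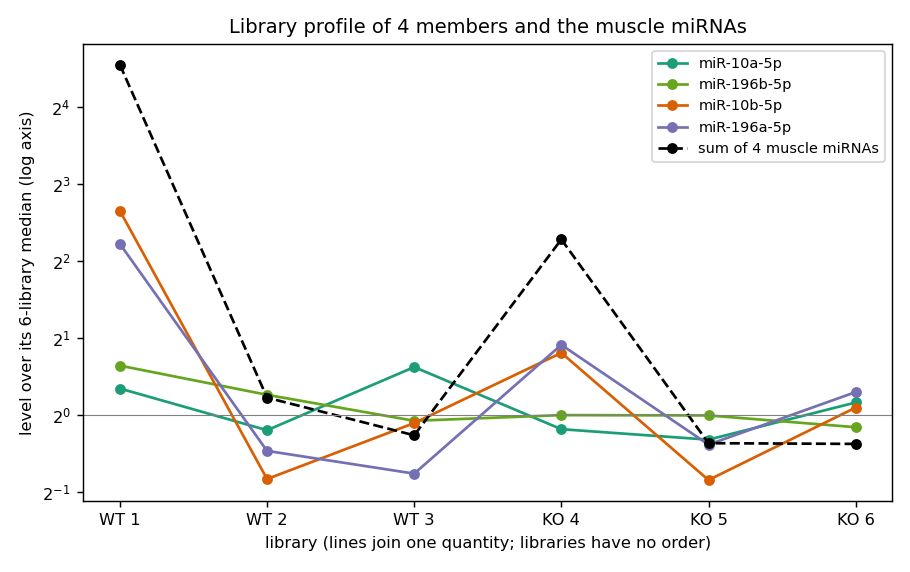
Level of 4 members and of the summed 4 muscle miRNAs in each library, divided by the quantity's own 6-library median (log axis); lines join values of one quantity and imply no order. miR-10b-5p reaches 6.27, miR-196a-5p 4.66 and the muscle sum 23.3 in WT library 1, while miR-10a-5p and miR-196b-5p stay between 0.80 and 1.56.

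Profiles like those of miR-10a-5p and miR-196b-5p were searched among the more abundant miRNAs, which left out miR-10a-3p and miR-196a-5p as candidates. By the same distance, over the 463 other miRNAs with a mean of at least 10 CPM, the 3 nearest to miR-10a-5p were miR-145a-3p (0.044), miR-199a-5p (0.10) and miR-503-3p (0.14). miR-145a and miR-199a are known from smooth muscle and other mesenchymal cells. miR-199a-5p stood at 91.5, 61.6 and 113.4 CPM in WT and 73.3, 56.1 and 92.2 CPM in KO. It was highest in WT library 3 as miR-10a-5p was, which picking it by likeness favours. The mesenchymal list of 7 miRNAs, all detected, summed to 2307 to 3177 CPM in WT and 2069 to 2997 CPM in KO, also highest in WT library 3. That sum was carried by miR-143-3p, at 2219 CPM in WT library 3, and 3 of the 7 peaked there, while miR-199a-3p and miR-214-3p peaked in WT library 1. The remaining members peaked in KO, miR-145a-5p in library 6 at 26.67 CPM and miR-199b-5p in library 5 at 15.3 CPM. The first of these is the other arm of miR-145a. The hepatocyte and epithelial sums were highest in WT library 3 as well, at 131600 and 1288 CPM. Of the 5 epithelial miRNAs, 3 peaked there, while miR-200c-3p and miR-141-3p peaked in WT library 1, at 183.0 and 51.69 CPM. In WT library 3 these last were at their lowest, 83.4 and 34.09 CPM. The part of these cell types in the level of miR-10a-5p was not tested.

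The 3 nearest to miR-196b-5p were miR-378a-5p (0.08), which comes from an intron of Ppargc1b, miR-466c-5p (0.083) and miR-467d-5p (0.11). miR-378a-5p stood at 50.3, 44.2 and 33.1 CPM in WT and 36.3, 37.5 and 33.8 CPM in KO. For miR-10b-5p, whose mean of 98.4 CPM was just under the 100 CPM set for this search, the nearest were looked up after its values were seen. They were farther off, miR-712-3p at 0.42, miR-218-5p at 0.61 and miR-9-3p at 0.65. All 3 were highest in WT library 1, which picking them by likeness to miR-10b-5p favours.

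The miR-99, miR-100 and miR-125 miRNAs are regarded as distant relatives of miR-10 and lie outside the Hox clusters. The 2 with the longest run of bases shared with miR-10a-5p are shown.
miR-100-5p: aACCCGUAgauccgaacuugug
miR-99a-5p: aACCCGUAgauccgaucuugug

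miR-100-5p shares an 11-base run with miR-10a-5p, guagauccgaa, which starts at base 7 of miR-10a-5p and base 6 of miR-100-5p, near the end of both seeds, and the seeds themselves differ. miR-99a-5p shares a 10-base run, while miR-99b-5p, miR-125a-5p and miR-125b-5p share no run longer than 5 bases with it. Of the 5 relatives tested, 0 were called, where 0.799% of all 876 tested miRNAs were. All 5 were below 0, as were 457 of the 873 tested miRNAs outside the deleted locus. The median log2 fold of the relatives was -0.59, against -0.01 for those 873. The folds ran from -1.14 for miR-100-5p (SE 0.48, edgeR adjusted p = 0.439) to -0.37 for miR-125a-5p (SE 0.51, edgeR adjusted p = 0.838). That of miR-100-5p was -0.47 (SE 0.33) without WT library 1, and that of miR-125a-5p turned to 0.14 without WT library 3. miR-100-5p stood at 26.0, 7.46 and 11.4 CPM in WT and 7.67, 4.69 and 7.89 CPM in KO. It was highest in WT library 1, as miR-10b-5p was. miR-99a-5p stood at 247.3, 192.6 and 379.2 CPM in WT and 148.4, 167.5 and 211.8 CPM in KO, highest in WT library 3, as miR-10a-5p was. Of the 5 relatives, 4 were highest in WT library 3 and 1 in WT library 1. Those libraries were the highest for 23.6% and 18.6% of the 873 tested miRNAs outside the deleted locus.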

How the data were processed

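The authors deposited raw read counts per mature miRNA for each of the 6 libraries and, beside them, the percent of the library's counts, which the authors derived from those counts (largest difference from count over total 5.0e-09). Only cutadapt, without a version, is named in the submitters' processing notes. For the aligner, miRNA annotation and genome build the entry is "not given in the sources used here". HITS-CLIP is named in the design text, but each sample is labelled as miRNA-Seq, and the values were treated as that.

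Differences were tested with edgeR 4.0.16 in R 4.3.3 (filterByExpr, TMM scaling, glmQLFit, glmQLFTest), fitted to all miRNAs with Benjamini-Hochberg adjustment, and an adjusted p under 0.05 was called. The SE is the absolute log2 fold over the square root of F. DESeq2 1.42.0, limma-voom (limma 3.58.1), other scalings, no filter and leaving out libraries were alternatives. Locus sums (log2 of CPM + 1) and count ratios (counts + 1) were compared by exact two-sided permutation tests.

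The members and lists were chosen with earlier results of these data known. Named miRNAs were the members, the other arms of their hairpins, the miR-99/100/125 relatives and, for members with a mean of at least 100 CPM, the 3 nearest profiles among miRNAs of at least 10 CPM; markers were named as list sums or where a member moved with them. The table had no row for miR-615-5p, the other arm of Mir615, so it was not analysed here.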

Additional observations from a re-analysis of the deposited data

How the results depend on the processing

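No paired analysis was possible because the WT libraries are numbered 1 to 3 and the KO libraries 4 to 6, with no shared number. Over 17 results, 180 of 203 alternative values kept the direction and the side of the threshold, 23 changed sign, and 0 members were called under any of them. For locus sums and ratios the side of the threshold could not change, because their exact permutation p cannot go below 0.1. The counts of called members, 0 throughout, have no direction and repeat the calls on the log2 folds. Whether the threshold was crossed was therefore open only for the log2 folds of members. The tally overstates how firmly the results were tried. Dropping the scaling factor raises miRNAs alike (median log2 fold outside the deleted locus 0.34), and under it signs changed for miR-10a-3p (log2 fold 0.25), miR-196b-5p (0.01), and the locus sums of miR-196b (0.03) and miR-196a (0.21), all below that median. Leaving out 1 library gave log2 folds of -0.37 to 0.10 for miR-10a-3p, -1.82 to 0.59 for miR-10b-5p, -1.15 to 0.97 for miR-196a-5p and -1.76 to 0.27 for miR-615-3p. The positive values came without WT library 1. miR-10a-5p (-0.65 to -0.28) and miR-196b-5p (-0.59 to -0.15) stayed below 0. Locus sums ranged from -1.24 to 0.48 for miR-10b, -0.58 to 0.74 for miR-196a and -0.71 to 0.04 for miR-615. The log2 ratio of miR-10a-5p to miR-10b-5p ranged from -0.82 to 0.70 and that of miR-196a-5p to miR-196b-5p from -0.12 to 1.03. Without both WT library 1 and KO library 4, values that changed sign were the log2 folds of miR-10a-3p (0.10), miR-10b-5p (0.13) and miR-196a-5p (0.61), the locus sums of miR-10b (0.09) and miR-196a (0.47), and the log2 ratio of miR-10a-5p to miR-10b-5p (-0.39). The log2 5p to 3p ratio of miR-10b ranged from 0.10 to 0.77 with other pseudocounts and from 0.01 to 1.12 without 1 library. The cause of these changes was not tested. Depth limits miR-615-3p and miR-10b-3p, at 0 to 40 counts per library.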
